A study of Mus musculus with 6 samples.

Results

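The mitochondrial ribosomal protein genes were described in growth plate cartilage of mouse embryos labelled as wild type or as conditional knockouts of Hnrnpk, an RNA-binding protein, in chondrocytes. Members were the genes whose symbol is Mrpl or Mrps followed by a number and at most 1 letter, and 78 of the 15803 genes of the table met this rule, of which 49 are named for the large subunit (Mrpl) and 29 for the small subunit (Mrps). The rule reads the symbol and no measured value, but this group of genes was taken up with earlier results of these data known. All 78 were found by identifier in GENCODE release M21 (mouse build GRCm38), where they lie on 17 chromosomes.

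Total RNA came from the growth plate cartilage of E18.5 embryos, and mRNA libraries were sequenced from 3 Col2a1-Cre;Hnrnpk fl/fl samples (CKO) and 3 Hnrnpk fl/fl samples (WT). The floxed allele was thus carried by both groups, and the Cre, driven by the Col2a1 promoter of chondrocytes, by the CKO group alone. Each library held 1153871 to 1454094 reads assigned to genes, so that 1 read was worth 0.688 to 0.867 CPM, the count scaled to 1000000 per library. Nothing in the labels says whether the 3 libraries of a genotype came from separate embryos, and the p-values measure the spread between these libraries, which may be technical.

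The mitochondrial ribosome translates the few mRNAs encoded by mitochondrial DNA, which specify core subunits of the respiratory chain and of ATP synthase. Its ribosomal RNAs come from mitochondrial DNA, whereas its proteins are encoded in the nucleus, made on cytosolic ribosomes and imported. The small subunit binds the mRNA and decodes it, and the large subunit forms the peptide bond. Some of the proteins have counterparts in bacterial ribosomes and the others are particular to mitochondria. Growth plate chondrocytes live with little oxygen and are known for a strongly glycolytic metabolism.

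Hnrnpk mRNA itself was measured at 842, 955 and 944 CPM in the libraries labelled WT and at 759, 949.9 and 780.0 CPM in those labelled CKO (log2 fold change -0.14, limma adjusted p = 0.622). The gene-level value counts reads of all exons together, whereas the loxP sites flank only some of them, and it did not separate the genotypes. The paper reports loss of the Hnrnpk protein in CKO growth plates of younger embryos, by western blot and immunostaining. Chondrocyte markers were present in every library, and their summed level was 31004 ± 4372 CPM in WT and 7216 ± 412 CPM in CKO (SD, n = 3), with 10 of 12 markers lower at an adjusted p under 0.05 (limma). Of the markers of other cell types, the sum of 5 epithelial genes was 21.1 to 42.0 CPM in WT and 65.7 to 119 CPM in CKO without overlap. Only 2 of these 5 were tested, with log2 fold changes of 0.41 and 3.78, and Krt15 and Krt1 stayed at or under 3 reads in every library. The epithelial markers Cdh1, Krt14 and Krt5 are absent from the table. The sums for muscle, erythroid, osteoblast and macrophage genes overlapped between the genotypes. Even so, 7 of 7 tested macrophage and osteoclast markers (median log2 fold change 0.67, 1 higher past the adjusted threshold in limma) and 6 of 7 tested osteoblast markers (median 0.94, 0 past it, with 2 higher and 1 lower at an unadjusted p under 0.05) were positive. Of the remaining lists, 5 of 5 endothelial and 6 of 13 muscle markers, Myh3, Myh8 and Ttn among them, stayed at or under 3 reads in every library. Their part in the results was not tested, and in bulk RNA a smaller number of cells of a type and less RNA per cell cannot be told apart. WT 3 and CKO 2 stood apart from the others of their genotype (correlation of log2(CPM + 1) over genes 0.937 and 0.938 for WT 3 against 0.965 between WT 1 and WT 2, and 0.921 and 0.924 for CKO 2 against 0.965 between CKO 1 and CKO 3). In CKO 2 the osteoblast genes summed to 375 CPM, against 1316 and 1408 CPM in the other CKO libraries, and in WT 3 the macrophage genes summed to 384 CPM and the muscle genes to 235 CPM, against 151 and 160 and against 77.6 and 49.5 CPM in the other WT libraries.

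Of the members, 2 passed the test, both higher in CKO, and more fold changes were positive than negative. Of the 77 members that averaged 1 CPM or more over the libraries, 56 (72.7%) had a positive and 21 a negative log2 fold change, where 50.8% of all genes tested were positive. With TMM scaling, 50 of 77 were positive. Their median was 0.19 on the log2 scale, against 0.01 over the 12155 genes tested and 0.03 over the 6827 genes averaging 10 CPM or more, a range nearer to the level of the members. With limma and Benjamini-Hochberg adjustment over all genes tested, 2 members were higher at an adjusted p under 0.05, Mrpl51 and Mrpl10, where 3.18% of all genes were higher. No member was lower past this threshold, where 2.6% of all genes were, although 1 member was lower at an unadjusted p under 0.05 and the edgeR and DESeq2 tests called none lower either. At an unadjusted p under 0.05, 16 members (20.8%) were higher against 11.2% of all genes, and 1 (1.3%) was lower against 10.1%. By the study's own criterion, a log2 fold change beyond 1 with p under 0.05, 1 member was higher (Mrpl10) and 0 were lower, against 5.3% and 5.1% of all genes. Every CKO library lay above every WT library for 26 members (33.8%), where 14.5% of all genes did so, and below for 4 members (5.19%), where 13.2% did.

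The share of members whose genotypes did not overlap upward was 34.7% among the 75 members averaging 10 CPM or more, and 18.7% among all genes of that level. The median standard error of a log2 fold change was 0.18 for the members and 0.26 for those genes. For 61 of the 77 members the 95% interval of the log2 fold change lay within ±1, so that a doubling or a halving lay outside it. A call depends on the libraries used: without CKO 2 the number of members past the adjusted threshold was 9 of 78, where 1298 of 12055 genes passed, a share like that of the members. Without WT 3 and CKO 2 it was 22 of 77, of which 17 were higher and 5 lower, while 2410 of 11911 genes then passed. The 5 lower members were Mrpl3, Mrpl23, Mrps15, Mrps24 and Mrps35. It was 0 without WT 1, WT 2, CKO 1 or CKO 3 and 1 without WT 3.

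**Figure D1:**
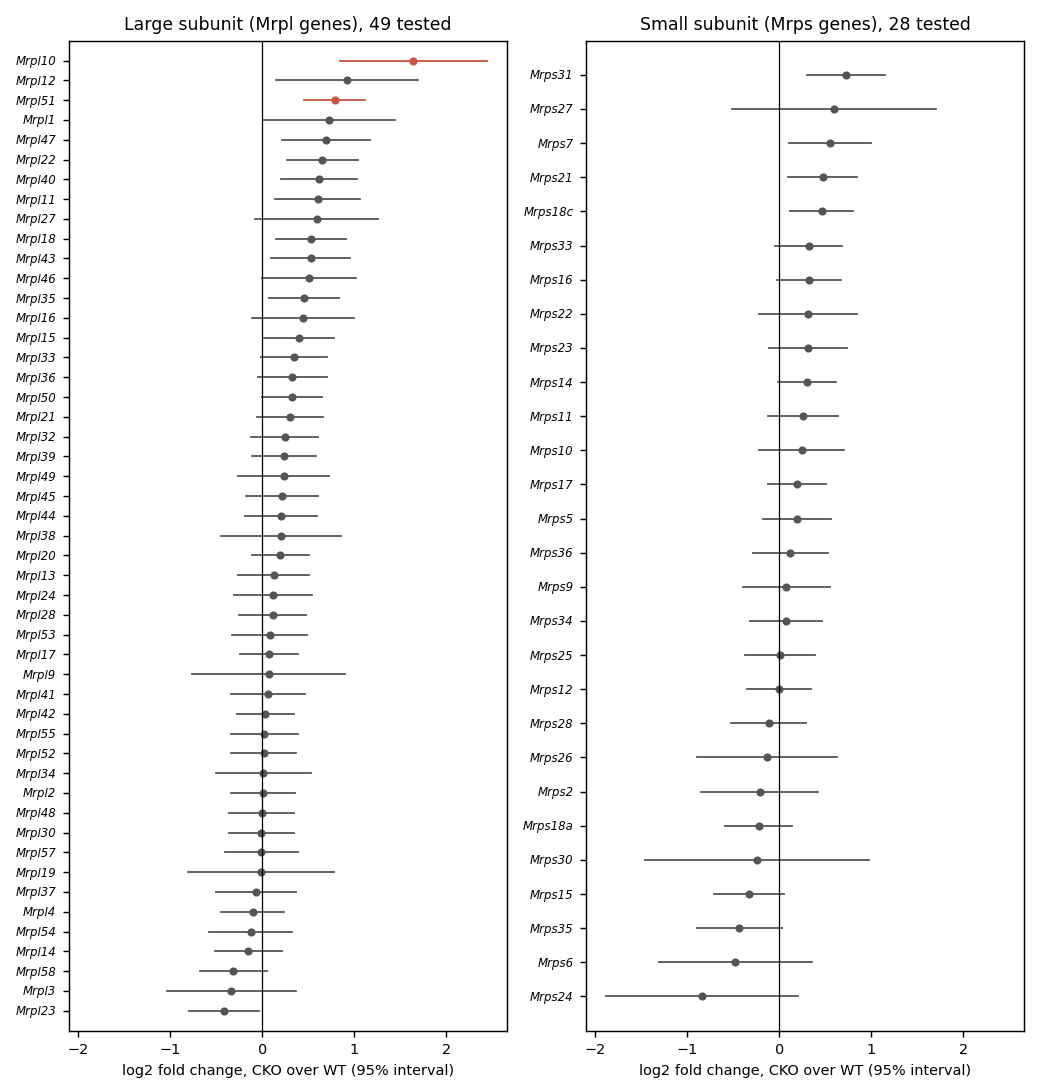
Log2 fold change of CKO over WT for each member tested, ordered by size, with the large subunit on the left and the small subunit on the right; points are limma estimates on log2(CPM + 1), bars their 95% intervals, and red marks an adjusted p under 0.05. Of 49 large subunit genes 38 lie right of 0, and of 28 small subunit genes 18 do, and the 2 red genes are Mrpl10 and Mrpl51.

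The 2 members past the threshold and the 2 shown beside them, Mrpl22 with the next smallest adjusted p in the large subunit and Mrps24 with the most negative fold change, are given with the 300 bases around their transcription start (250 before and 50 after it), from RefSeq on GRCm38.p6, read 5′ to 3′ on the strand of the gene. Capitals mark a match to 1 of 3 motifs that are common in promoters of nuclear genes for mitochondrial proteins: CGCATGCG, the core of sites for NRF1, which reads the same on both strands, AAGATGGCG of YY1, and CCGGAAGT of the ETS family, to which GABP belongs. Both strands were searched. The windows are chr6:125191950-125192249 (plus strand) for Mrpl51, chr11:97041332-97041631 (plus) for Mrpl10, chr11:58171414-58171713 (plus) for Mrpl22 and chr11:5707652-5707951 (minus) for Mrps24. These RefSeq starts can differ from the GENCODE starts, which were used for gene positions and distances between genes. For Mrps24 the window lies inside the GENCODE span of the gene (chr11:5703983-5715680). For Mrpl51 it begins after the GENCODE start (chr6:125191801).
Mrpl51: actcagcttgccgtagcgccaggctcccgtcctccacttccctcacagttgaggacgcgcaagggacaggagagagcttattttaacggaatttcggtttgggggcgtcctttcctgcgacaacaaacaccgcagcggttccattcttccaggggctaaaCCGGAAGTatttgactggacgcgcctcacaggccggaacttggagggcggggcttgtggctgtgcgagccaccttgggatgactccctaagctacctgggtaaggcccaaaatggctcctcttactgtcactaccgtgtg
Mrpl10: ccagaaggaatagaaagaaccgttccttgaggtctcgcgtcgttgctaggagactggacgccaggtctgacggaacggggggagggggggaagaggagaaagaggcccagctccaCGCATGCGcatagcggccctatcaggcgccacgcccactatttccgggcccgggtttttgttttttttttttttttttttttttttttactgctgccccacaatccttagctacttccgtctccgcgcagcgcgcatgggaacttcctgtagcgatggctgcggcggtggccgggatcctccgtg
Mrpl22: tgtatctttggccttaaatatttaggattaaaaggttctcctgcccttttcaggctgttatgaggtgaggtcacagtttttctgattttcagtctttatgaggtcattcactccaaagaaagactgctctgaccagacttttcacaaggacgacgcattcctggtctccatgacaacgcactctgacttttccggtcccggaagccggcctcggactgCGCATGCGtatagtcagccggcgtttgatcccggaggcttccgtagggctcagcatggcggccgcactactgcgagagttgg
Mrps24: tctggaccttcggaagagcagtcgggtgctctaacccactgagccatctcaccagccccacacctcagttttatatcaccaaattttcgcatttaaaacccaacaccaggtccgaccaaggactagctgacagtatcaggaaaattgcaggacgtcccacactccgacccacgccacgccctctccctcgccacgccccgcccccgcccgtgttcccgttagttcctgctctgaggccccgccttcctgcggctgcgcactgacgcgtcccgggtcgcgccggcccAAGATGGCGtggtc
Counted from the RefSeq start, the ETS letters begin at position -90 in Mrpl51, the NRF1 letters at -135 in Mrpl10 and -32 in Mrpl22, and the YY1 letters at 36 in Mrps24.

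Of the 78 members, 69 matched the RefSeq promoter table, with 75 windows. The NRF1 letters stood in 9.33% of these windows and 1.87% of all 32851 windows of the table, the YY1 letters in 10.7% and 1.4%, and the ETS letters in 16% and 3.89%. In all, 26 members held at least 1 of them, Mrps27 held both the YY1 and the ETS letters, and in 0 member windows did matches to 2 motifs overlap. Of the 6 tested members with the NRF1 letters (Mrpl9, Mrpl10, Mrpl17, Mrpl22, Mrpl32 and Mrpl39), 6 had a positive log2 fold change, with a median of 0.24. The ETS letters went with 9 positive of 12 and a median of 0.40, and the YY1 letters with 5 positive of 8 and a median of 0.15. The median of all members was 0.19, and the letters are a description of these windows alone.

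Mrpl51, a protein of the large subunit that has no bacterial counterpart, had the smallest adjusted p of the members. Its gene lies at chr6:125191801-125196269 on the plus strand and its level was 155, 143 and 159.7 CPM in the WT libraries and 246, 271 and 275 CPM in the CKO libraries. The lowest CKO library stood well above the highest WT library. The log2 fold change was 0.79 ± 0.15 (SE; limma adjusted p = 0.0144), and it rested on 189 to 376 reads per library. Over 13 alternatives of fitting the log2 fold change stayed between 0.74 and 0.84, and its adjusted p lay between 3.86e-05 and 0.0838, under the threshold in 9 of them. Ncapd2, a condensin subunit, starts 100 bases from the GENCODE start of Mrpl51 in the opposite direction. It had 14.5, 12.8 and 10.1 CPM in WT and 13.1, 30.3 and 15.6 CPM in CKO (log2 fold change 0.54, limma adjusted p = 0.408).

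Mrpl10 encodes the protein that anchors the stalk of the large subunit, on which translation factors act. The gene (chr11:97041560-97049213, plus strand) was measured at 7.97, 4.5 and 5.07 CPM in WT and 20.6, 13.7 and 27.7 CPM in CKO. The genotypes did not overlap, yet these levels are 6 to 11 reads in WT and 19 to 32 reads in CKO. Its log2 fold change was 1.64 ± 0.36 (SE; limma adjusted p = 0.0271), the largest among the members tested. In 7 of 13 alternatives it passed, at adjusted p-values from 0.000984 to 0.129 over all of them. Mrpl12, which encodes the protein that Mrpl10 holds in that stalk, was measured at 5.07, 6.0 and 10.1 CPM in WT and 11.7, 15.2 and 14.7 CPM in CKO. The genotypes did not overlap, at 7 to 21 reads per library, and the difference missed the threshold (log2 fold change 0.92 ± 0.35, limma adjusted p = 0.156).

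The other large subunit members with the largest positive differences missed the adjusted threshold in limma. Mrpl22, a protein of the wall of the peptide exit tunnel, had 112, 106 and 98.8 CPM in WT and 168, 142 and 193 CPM in CKO (log2 fold change 0.65 ± 0.17, limma adjusted p = 0.0537). It passed in edgeR (edgeR adjusted p = 0.0498) and not in DESeq2 (DESeq2 adjusted p = 0.099). Mrpl40, which lies in the region that is lost in the human 22q11 deletion syndrome, had 87.7, 91.6 and 79.4 CPM in WT and 138, 156 and 108 CPM in CKO (0.62 ± 0.19, limma adjusted p = 0.0845). Mrpl47, the counterpart of bacterial L29, had 31.9, 42.8 and 34.6 CPM in WT and 53.0, 70.0 and 55.5 CPM in CKO (0.69 ± 0.21, limma adjusted p = 0.0898). In all 3 of these genes the lowest CKO library lay above the highest WT library. Mrpl1, a protein near the exit of the spent tRNA, overlapped, with 23.2, 39.8 and 18.6 CPM in WT against 49.5, 30.3 and 54.6 CPM in CKO (limma adjusted p = 0.225).

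In the small subunit 0 members passed the adjusted threshold in limma, edgeR and DESeq2. At an unadjusted p under 0.05 in limma, 4 of 28 were higher (14.3%) and 0 lower. This share was near the 11.2% of all genes tested, and the 14.6% of genes averaging 10 CPM or more, that were higher. The nearest to the adjusted threshold was Mrps31, a mitochondria-specific protein of the head of the subunit (chr8:22411361-22429665, plus strand), with 64.5, 70.5 and 49.8 CPM in WT and 105, 98.2 and 101 CPM in CKO. The CKO libraries were close together and all above WT (log2 fold change 0.72 ± 0.19, limma adjusted p = 0.0519). Mrps7, the counterpart of bacterial S7 in the head of the subunit, had 57.3, 64.5 and 59.1 CPM in WT and 70.8, 109 and 90.1 CPM in CKO (limma adjusted p = 0.149). Mrps21 had 279.8, 306 and 329 CPM in WT and 466, 339 and 473 CPM in CKO (log2 fold change 0.47, limma adjusted p = 0.145). Mrps18c, 1 of 3 mammalian forms of bacterial S18, had 200, 185 and 194 CPM in WT and 253, 245 and 303 CPM in CKO (log2 fold change 0.46, limma adjusted p = 0.115). The genotypes did not overlap in any of these 4 genes. Mrps33 overlapped by 1 library, with 283, 298 and 231 CPM in WT and 368, 292 and 354 CPM in CKO.

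**Figure D2:**
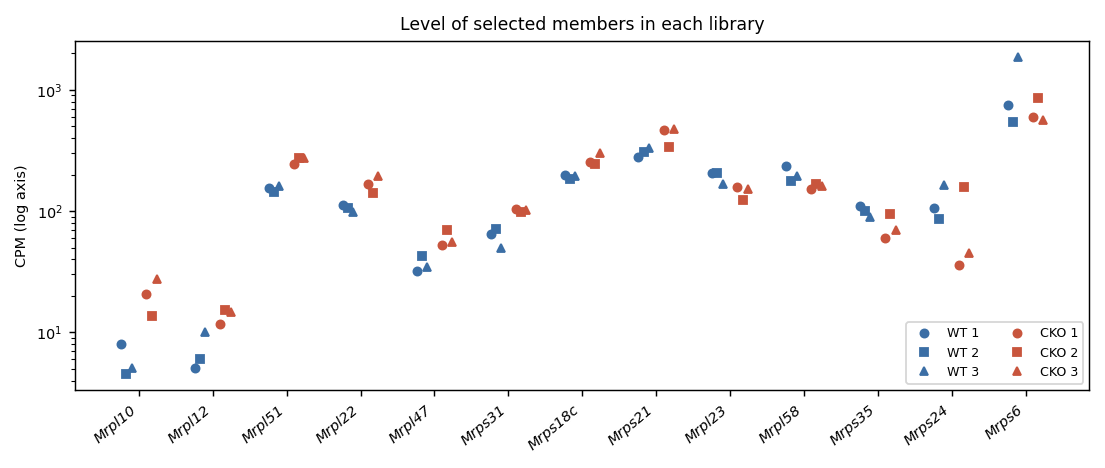
Level of 13 members in each of the 6 libraries, as CPM on a log axis, with WT in blue, CKO in red and the symbol shape giving the replicate number. Mrpl51 and Mrps31 separate the genotypes, while WT 3 of Mrps6 (1877 CPM) and CKO 2 of Mrps24 (157 CPM) lie far from the libraries of the same colour.

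Of the members with negative log2 fold changes, 4 separated the genotypes, and 0 passed the adjusted threshold. Mrpl23, the counterpart of bacterial L23 at the exit of the tunnel, had 206, 205 and 168 CPM in WT and 158, 123 and 152 CPM in CKO (log2 fold change -0.42 ± 0.17, limma adjusted p = 0.193). Mrpl58, also known as ICT1, is a peptidyl-tRNA hydrolase that rescues stalled ribosomes, and it had 233, 176 and 195 CPM in WT and 153, 167 and 162 CPM in CKO (limma adjusted p = 0.303). Mrps15 had 162, 137 and 122 CPM in WT and 107, 110.4 and 114 CPM in CKO (limma adjusted p = 0.296), and Mrps18a had 134, 134 and 139 CPM in WT against 101, 126 and 122 CPM in CKO (limma adjusted p = 0.466). These differences were of -0.23 to -0.42 on the log2 scale. Other members with negative log2 fold changes overlapped: Mrpl14 (-0.15), Mrpl54 (-0.12), Mrpl3 (-0.34), which at 28.9 CPM in CKO 1 lay far under the 79.4 and 57.2 CPM of CKO 2 and CKO 3, and Mrps35 (-0.44), with 109, 101 and 88.7 CPM in WT and 59.8, 93.8 and 69.3 CPM in CKO.

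The 2 most negative small subunit members depended on single libraries. Mrps24 (chr11:5703983-5715680, minus strand) had 107, 85.6 and 165 CPM in WT and 35.8, 157 and 45.1 CPM in CKO. CKO 2 was 3.49 times the higher of the other CKO libraries and lay inside the WT range. The log2 fold change was -0.84 ± 0.47 with all libraries (limma adjusted p = 0.334), and Mrps24 passed without CKO 2, at -1.49 (limma adjusted p = 0.00536), and without WT 3 and CKO 2, at -1.23 (limma adjusted p = 5.89e-05). Mrps6 (chr16:92058270-92112227, plus strand), the most abundant member, had 752, 547 and 1877 CPM in WT and 597, 848 and 565 CPM in CKO. WT 3 alone was high, and the log2 fold change of -0.48 ± 0.37 (limma adjusted p = 0.505) became 0.04 without it. Slc5a3, the inositol transporter whose exons overlap those of Mrps6 on the same strand, had 18.8, 20.3 and 62.5 CPM in WT and 15.8, 44.8 and 22.5 CPM in CKO, with its highest WT and CKO values in the same libraries as Mrps6. In Mrps6 19.9% of exon bases are shared with other genes of the strand, and in Mrps24 15.4% are shared with Urgcp. How reads in shared exons were counted is not given in the sources used here.

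Within a genotype most members varied little between libraries. Over the 72 members with at least 10 reads in every library the median coefficient of variation was 11.3% in WT and 11.7% in CKO, where counting error alone gave 7.81% and 7.69%. It was widest for Mrps6 in WT (67.6%) and Mrps24 in CKO (85.2%). Near-identical copies elsewhere in the annotated transcripts were found for 31 members, up to 7 for Mrps36, and levels of these genes are uncertain where reads could be split. The exons of 8 members overlap another gene on the same strand, most in Mrpl53 (88% of exon bases, with Gm42688) and Mrps34 (37%, with Nme3). The overlap is 23.2% in Mrps18c, and only 2.15% in Mrpl51.

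The members were compared by subunit. Of the large subunit genes 38 of 49 had a positive log2 fold change with a median of 0.20, and of the small subunit genes 18 of 28 did, with a median of 0.15. The order of the medians turned without CKO 2, at 0.19 for the large and 0.22 for the small subunit, and without CKO 3 the small subunit median was 0.08. The CKO libraries lay above all WT libraries for 18 (36.7%) and 8 genes (28.6%), where 14.5% of all genes tested did. They lay below for 2 (4.08%) and 2 genes (7.14%), where 13.2% did. Summed over the large subunit, the level was 6782, 6494 and 6307 CPM in WT and 7465, 7174 and 7572 CPM in CKO. The means were 6528 ± 239 and 7404 ± 206 CPM (SD, n = 3), a ratio of 1.13, and the genotypes did not overlap. Summed over the small subunit, it was 4380, 4206 and 5396 CPM in WT and 4753, 4790 and 4842 CPM in CKO, which overlapped, since WT 3 lay above all CKO libraries. Without Mrps6 the small subunit sum was 3628, 3658 and 3519 CPM in WT and 4157, 3942 and 4277 CPM in CKO, a ratio of 1.15 without overlap.

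**Figure D3:**
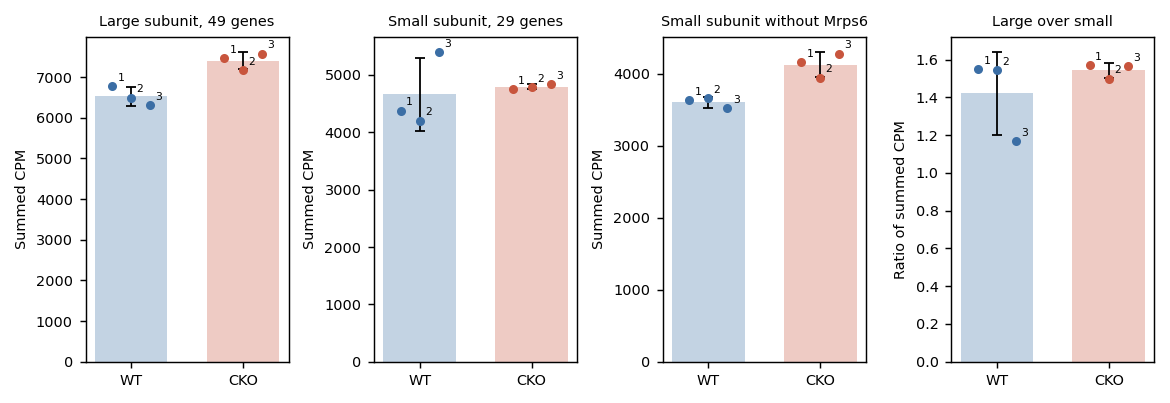
Summed CPM of the large subunit genes, of the small subunit genes and of the small subunit genes without Mrps6, and the ratio of large to small; bars are means with SD over 3 libraries, and points are libraries numbered by replicate. WT 3 is the library with the high small subunit sum (5396 CPM) and the low ratio (1.17), and without Mrps6 all CKO sums exceed all WT sums.

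The ratio of large to small subunit sums was 1.55, 1.54 and 1.17 in WT and 1.57, 1.5 and 1.56 in CKO, which overlapped. On the log2 scale the mean difference of CKO from WT was 0.13, and it was -0.0025 without WT 3. Without the most abundant member of each subunit, Mrpl17 and Mrps6, the ratio was 1.66 ± 0.04 in WT and 1.66 ± 0.03 in CKO (SD, n = 3). The mean of log2(CPM + 1) over members, which gives each gene the same weight, differed between the subunits by 0.21, 0.25 and 0.12 in WT and 0.43, 0.32 and 0.39 in CKO. By this measure the large subunit stood higher against the small one in all CKO libraries, by 0.18 on average. The measures therefore differed: the summed level of both subunits kept its proportion once Mrps6 and Mrpl17 were left out, while the mean over genes moved toward the large subunit. That mean kept all 78 members, Mrps6 and genes of few reads among them, so the 2 measures differ in their members as well as in weight. None of these values was tested.

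Some symbols do not match the place of the protein. Mrps30 and Mrps18a are known as proteins of the large subunit, and Mrps36 as a component of the 2-oxoglutarate dehydrogenase complex. Assigned by structure, 51 large subunit genes had a median log2 fold change of 0.20 and 25 tested small subunit genes one of 0.19. Mrps36 itself had 150.0, 188 and 179.9 CPM in WT and 201, 151 and 213 CPM in CKO, which overlapped. Mrps30 was near the floor in every library, with 1 to 6 reads. By descent, the 47 tested members with a bacterial counterpart had a median of 0.19 and the 30 mitochondria-specific members one of 0.16, so that the split by subunit or by descent gave medians of a similar size.

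The levels per kilobase of annotated exon differed widely among genes of a complex that is built with 1 copy of most proteins. They ranged from 1.84 to 291 CPM per kb in the large subunit (median 54.3) and from 0.296 to 564 in the small subunit (median 37.2). The highest in the large subunit were Mrpl34 (291), Mrpl14 (250.5) and Mrpl20 (232), and the lowest Mrpl19 (1.84), Mrpl9 (4.28) and Mrpl12 (6.83). In the small subunit Mrps6 (564), Mrps21 (494) and Mrps18c (214) were highest and Mrps30 (0.296), Mrps18b (0.434) and Mrps27 (0.971) lowest. Exon length here joins the exons of all annotated transcripts, which lowers the value of genes with long minor transcripts. Mrpl20 lay above WT in all CKO libraries (328, 359 and 390.3 against 413, 419 and 402 CPM, limma adjusted p = 0.458), whereas Mrpl34, Mrpl19 and Mrpl9 overlapped. Mrps18b held 0 to 2 reads per library, less than the 3 reads used as the floor (2.06 to 2.60 CPM), and was not tested, and Mrps27 held 1 to 4.

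Many members start close to another gene. By the GENCODE starts, a protein-coding gene on the opposite strand began within 1000 bases on either side for 33 of the 78 members (42.3%). This held for 2205 of 15194 protein-coding genes of the table (14.5%). Some of these pairs point away from each other, and in others the genes overlap at their starts. Of the 32 such members tested, CKO exceeded WT without overlap for 13 (40.6%) and fell below it for 0, with a median log2 fold change of 0.24. Of the other 45 members it did so for 13 (28.9%) and 4 (8.89%), with a median of 0.12. The 28 tested neighbours had a median of 0.02 and separated upward in 4 (14.3%) and downward in 3 cases (10.7%). Of all genes tested 14.5% and 13.2% did so, so that the neighbours were near the shares of all genes. In 1 pair both genes are members, and it was singled out after its values were seen: Mrps11 and Mrpl46 start 412 bases apart on chromosome 7 and overlap there. Both lay above WT in all CKO libraries, Mrps11 with 68.1, 75.8 and 76.9 CPM in WT and 96.3, 85.9 and 82.3 CPM in CKO, and Mrpl46 with 23.2, 24.8 and 21.1 CPM in WT and 32.3, 39.0 and 28.6 CPM in CKO. Neither passed the threshold (limma adjusted p = 0.431 and 0.239).

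The cytosolic ribosomal protein genes, whose products make the mitochondrial ones, had more negative than positive fold changes. Of 81 tested, 17 had a positive and 64 a negative log2 fold change, with a median of -0.20, and 1 was higher and 4 were lower at an adjusted p under 0.05 (limma; 1.23% and 4.94%, where 3.18% and 2.6% of all genes were). The CKO libraries lay above WT for 5 (6.17%) and below for 15 of them (18.5%), where 14.5% and 13.2% of all genes and 18.7% and 15.7% of genes averaging 10 CPM or more did, so that the share below was near that of genes of such levels. Their summed level overlapped, with 209249, 212811 and 167550 CPM in WT and 158031, 189738 and 157227 CPM in CKO. The mitochondrial members summed to 11188 ± 502 CPM in WT and 12199 ± 225 CPM in CKO (SD, n = 3) without overlap. Both are shares of the same library total, and the difference between the 2 groups of genes was not tested.

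**Figure D4:**
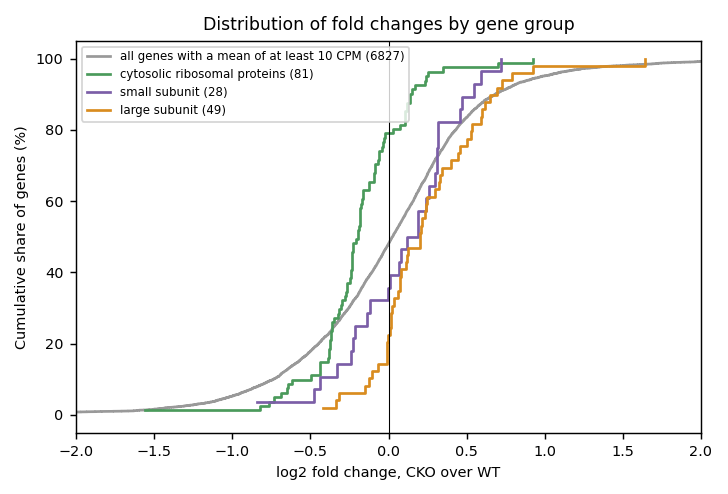
Cumulative share of genes by log2 fold change of CKO over WT, for the large and small subunits, the cytosolic ribosomal proteins and all genes averaging 10 CPM or more; the axis is limited to ±2. The curve of the cytosolic proteins (median -0.20) lies left of all genes (median 0.03) at its middle and those of the large (0.20) and small (0.15) subunits lie right of it.

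Other genes of mitochondrial translation were followed as lists. The 5 mitoribosomal proteins that carry other names gave 4 positive and 1 negative log2 fold change, with 0 past the adjusted threshold in limma, edgeR and DESeq2 and 1 at an unadjusted p under 0.05 (limma). Gadd45gip1, a large subunit protein also called CRIF1, had 133, 96.1 and 80.3 CPM in WT and 149.9, 125 and 166 CPM in CKO (log2 fold change 0.53, limma adjusted p = 0.190). Dap3, a GTP-binding small subunit protein (0.25), Aurkaip1 (0.22), Chchd1 (0.06) and Ptcd3 (-0.08) overlapped between the genotypes too. Of 23 assembly and ribosomal RNA modification genes, 9 were positive and 14 negative with a median of -0.15, and 1 was lower past the threshold: Ngrn, a factor that binds the large ribosomal RNA of mitochondria. It had 49.3, 48.0 and 45.6 CPM in WT and 26.1, 26.0 and 23.4 CPM in CKO, far apart (log2 fold change -0.90 ± 0.20, limma adjusted p = 0.0309).

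Of the 13 tested translation factors 5 were positive and 8 negative with 0 past the adjusted threshold and 2 at an unadjusted p under 0.05 (limma), and of the 15 genes of mitochondrial transcription and RNA handling 4 were positive and 11 negative, with 0 past either level. In these 2 lists edgeR and DESeq2 called 0 as well. The 2 translation factors at the unadjusted level, named after their values were seen, work as a pair: Tufm, the elongation factor that brings tRNA to the ribosome, and Tsfm, which recharges it with GTP. Tufm had 87.7, 67.5 and 103 CPM in WT and 131, 122 and 142 CPM in CKO (log2 fold change 0.63, limma adjusted p = 0.0898). Tsfm had 89.9, 76.5 and 94.6 CPM in WT and 56.4, 67.1 and 45.9 CPM in CKO (-0.63, limma adjusted p = 0.104). The 2 genes thus separated the genotypes in opposite directions. In their list 2 of 13 genes separated upward (15.4%) and 1 downward (7.69%), where 14.5% and 13.2% of all genes tested did. At the unadjusted level 1 was higher and 1 lower (7.69% each), against 11.2% and 10.1% of all genes.

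Of the 12 tested protein genes of mitochondrial DNA, the templates of this ribosome, 6 were positive and 6 negative. mt-Nd1, a subunit of complex I, was higher, with 348, 361 and 531 CPM in WT and 845, 591 and 875 CPM in CKO (log2 fold change 0.90 ± 0.21, limma adjusted p = 0.0344). mt-Co3, a subunit of complex IV, was lower, with 69.6, 63.0 and 41.4 CPM in WT and 30.3, 10.8 and 26.0 CPM in CKO (-1.42 ± 0.37, limma adjusted p = 0.0490). The 2 mRNAs come from the same strand of the same molecule and moved in opposite directions. For mt-Co3 the reads were 15 to 96 per library, and near-identical copies of these genes were not looked for. Without overlap, 1 of the 12 genes was higher (8.33%) and 2 were lower (16.7%), where 14.5% and 13.2% of all genes tested were. The other lower gene was mt-Co1 (-1.12, limma adjusted p = 0.205), named after its values were seen. It had 308, 394 and 258 CPM in WT and 248, 54.1 and 224 CPM in CKO, with CKO 2 far under the other CKO libraries. Over the alternatives of fitting its log2 fold change ranged from -1.50 to -0.41. Of 8 tested regulators of nuclear genes for mitochondrial proteins, 3 were positive and 5 negative, and Gabpb1, which encodes the β subunit of GABP, was higher, with 29, 17.3 and 22.0 CPM in WT and 46.1, 41.9 and 44.2 CPM in CKO (log2 fold change 0.95 ± 0.24, limma adjusted p = 0.0483). Gabpa, which encodes the α subunit, was named after its values were seen and lay the other way without overlap. It had 13.8, 12.0 and 16.9 CPM in WT and 11.7, 11.5 and 11.3 CPM in CKO (-0.27, limma adjusted p = 0.633). On the recovered reads, edgeR and DESeq2 both called mt-Nd1 and mt-Co3, edgeR alone Ngrn, and neither called Gabpb1. The number of genes of these lists past the threshold was 4 in all. It was 9 without CKO 2, 1 without WT 3 and 0 without any 1 of the other libraries.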

How the data were processed

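Deposited values were CPM per gene for 3 WT and 3 CKO libraries, made by the authors from a stranded mRNA kit; the submitters' processing notes name cutadapt 2.5, HISAT2 and featureCounts 1.6.3, and the genome build and annotation are not given in the sources used here. All values (100%) were whole multiples of 1 read within a tolerance of 0.01 reads, so reads were recovered. With limma 3.58.1 (R 4.3.3; trend), log2(CPM + 1) was modelled by genotype for the 12155 genes averaging 1 CPM or more, with Benjamini-Hochberg adjustment over all of them at 0.05. Fold changes of low genes are understated by the pseudocount. Alternatives were a pseudocount of 0.1, no filter, TMM scaling, a replicate block, each library left out, edgeR 4.0.16 (quasi-likelihood) and DESeq2 1.42.0 on the recovered reads, and, added after the data were seen, WT 3 and CKO 2 both left out. Genes named are members past the threshold or the study's criterion, the 5 largest log2 fold changes in each direction among members with at least 10 reads in every library and the 3 highest and 3 lowest levels per kb in each subunit, Mrps18a, Mrps30, Mrps36, mitoribosomal proteins under other names and related genes past the threshold. Members and lists were chosen with earlier results of these data known. Copies are transcript matches of at least 300 bases and 90% identity.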

Additional observations from a re-analysis of the deposited data

How the results depend on the processing

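Against 2 members past the adjusted threshold, the replicate block gave 1, leaving out 1 library 0 to 9, and leaving out WT 3 and CKO 2 together 22. With edgeR 3 passed, Mrpl22 being the one added, and with DESeq2 2. Of the related lists, 4 genes passed, 2 with a pseudocount of 0.1, 1 with the replicate block, 2 with DESeq2, 0 to 9 with 1 library left out and 17 without WT 3 and CKO 2. Over all genes tested, 703 of 12155 passed with all libraries and 2410 of 11911 without WT 3 and CKO 2. Same-numbered libraries did not deviate together (r of 0.04, -0.13 and -0.10), but with 3 libraries per genotype this cannot exclude a pairing. The paper compared mice with their littermates, and whether same-numbered libraries came from littermates is not given. The large subunit median was 0.15 to 0.23 and the small subunit median 0.0807 to 0.221 with 1 library left out, and the latter 0.10 with DESeq2. TMM scaling left 50 of 77 members positive and edgeR 49 of 75. The log2 ratio of large to small was -0.0038 without the most abundant members and -0.0025 to 0.20 with 1 library left out. With 1 library left out, log2 fold changes crossed 0, among the genes picked by the naming rule, for Mrps30 (-0.63 to 0.27), Mrpl3 (-0.65 to 0.063), Mrpl54 (-0.27 to 0.022), Mrpl34 (-0.13 to 0.29), Mrpl19 (-0.28 to 0.18), Mrpl9 (-0.23 to 0.28), Mrps6 (-0.85 to 0.038) and Ptcd3 (-0.31 to 0.20). Without WT 3 and CKO 2 they were 0.29 for Mrps30, 0.081 for Mrpl19 and -0.24 for Mrpl9, with TMM scaling -0.031 for Mrpl34, and with edgeR -0.017 for Mrpl9. The cause was not tested, except that fewer libraries entered the fits with 1 or 2 left out. Over these picked genes, 413 values kept their direction and side of the threshold, 38 lost the threshold, 22 gained it and 19 reversed. Depth limits Mrps2, Mrps18b, Mrps27, Mrps30, Mrpl9, Mrpl10, Mrpl12 and Mrpl19 most, with at most 32 reads per library.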
